A study of Mus musculus with 16 samples.

Results

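The results concern an interaction, namely how the response of the mouse lumbar spinal cord to the SOD1G93A transgene differed between animals with intact Atg7 and animals with conditionally deleted Atg7. All 16 of the 16 libraries entered, 4 in each of 4 groups, and 15426 of the 23284 genes in the count table had enough reads to be tested. The groups were Atg7 cWT, Atg7 cKO, Atg7 cWT with SOD1G93A and Atg7 cKO with SOD1G93A, written below as cWT, cKO, cWT SOD1 and cKO SOD1, and all were taken at 150 days of age. Each library was made from poly-A RNA of a whole lumbar spinal cord. The series title locates the loss of autophagy in motor neurons, but the labels used here do not name the Cre driver, and a whole cord holds mostly other cells. The replicates carry numbers without a statement that each is a separate animal, so the p-values measure the spread between these samples.

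Atg7 is the E1-like enzyme that activates the conjugation of LC3 to lipid, and without it autophagosomes do not form by the canonical route. SOD1G93A is a mutant human superoxide dismutase whose expression in mice causes progressive motor neuron degeneration with strong microglial and astrocytic reactions, and it is a standard model of familial amyotrophic lateral sclerosis. Motor neurons are a small share of the cells of the lumbar cord, and many transcripts that respond to the transgene come from glia.

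For every gene the transgene response is the log2 fold change of the SOD1 libraries over the transgene-free libraries of the same Atg7 genotype. The interaction is the response in cKO minus the response in cWT, so a gene that was induced less in cKO has a negative interaction and a gene that was lost less in cKO has a positive one. Calls are at an adjusted p under 0.05 by edgeR's quasi-likelihood test with Benjamini-Hochberg adjustment over all 15426 genes, and levels are CPM, counts scaled to a common library total, with group means given ± SD over 4 libraries. An interaction printed without a p-value was called unless the sentence says otherwise. In counts over a list, genes that rose or fell and interactions that were positive or negative are called ones. The libraries held 14989026 to 20892530 counts. The first principal component of log2 CPM held 71.4% of the variance and placed the cWT libraries at -39.6 to -34.7, the cKO libraries at -39.7 to -28.4, the cKO SOD1 libraries at -3.58 to 0.41 and the cWT SOD1 libraries at 53.1, 83.1, 87.5 and 66.0. Libraries of cKO SOD1 thus lay between the transgene-free libraries and the cWT SOD1 libraries without overlap, and replicate 1 of cWT SOD1 was the least displaced of its group.

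Atg7 itself (mm9 chr6:114593119-114810632) read 35.1, 29.7, 29.9 and 31.0 CPM in the 4 cWT libraries and 28.3, 28.8, 28.4 and 26.4 CPM in the cKO libraries. It read 30.3, 23.1, 22.1 and 20.8 CPM in cWT SOD1 and 29.4, 20.4, 29.3 and 29.6 CPM in cKO SOD1. The cKO libraries lay below all cWT libraries by a small margin, the difference without the transgene was -0.17 (log2) and was not called, and the interaction of 0.34 (95% interval -0.01 to 0.69) was not called either. It was called without replicate 1 of cWT SOD1 (0.47, adjusted p = 0.0109) and without replicate 2 of cKO SOD1 (0.46, adjusted p = 0.0121), the library that read 20.4 CPM, and in females alone (0.58, adjusted p = 0.00692). Whole-gene counts from a whole cord therefore do not separate the genotype labels by much, and whether reads from a deleted part were lost was not tested. Mouse Sod1 (mm9 chr16:90220987-90226569) lay between 101 and 129 CPM in all 16 libraries, with an interaction of -0.09 and an adjusted p of 0.399. These counts hold the mouse gene and do not measure the human transgene.

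The transgene response was far smaller in cKO than in cWT. In cWT 10221 genes were called, 66.3% of those tested, with 5122 higher (33.2%) and 5099 lower (33.1%). In cKO 1123 genes were called, 7.28% of those tested, with 740 higher (4.80%) and 383 lower (2.48%). The difference between both responses was itself called for 6949 genes, 45.0% of those tested, of which 3582 had a positive interaction (23.2%) and 3367 a negative one (21.8%). Past 2-fold, 311 interactions were positive and 1155 negative. Scaling the libraries to pan-neuronal genes in place of all genes moved the median interaction of all genes from -0.005 to -0.79 and the split of calls to 195 positive and 12432 negative, so every direction given below is relative to the median gene. Since few genes were called in cKO at all, a list with few or no calls there lies near the share of all genes, and such counts below are not read as a trait of the list. The same holds for a list whose calls in cWT lie near 66.3% or whose called interactions lie near 45.0%.

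The reduction reached genes that the transgene raised and genes that it lowered. Among the 5122 genes higher in cWT, the median response in cKO was 22.8% of that in cWT on the log2 scale (interquartile range 8.92% to 35.5%), and among the 5099 lower genes it was 18.8%. Of the 1721 genes that rose more than 2-fold in cWT, 1437 had a called interaction of the opposite sign, and of the 646 that fell more than 2-fold, 562 had one. The cWT response is part of the interaction with its sign reversed. Picking genes by it favours opposite signs and smaller shares, so these shares and the classes below are descriptions. Across all genes the cKO response followed the cWT response with a slope of 0.281 (Pearson's r 0.769, Spearman's rho 0.688), and across the 10535 genes whose mean reached 10 CPM the slope was 0.262 with an r of 0.846. Both responses share no library, and genes are not independent replicates, so no p-value is given.

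**Figure D1:**
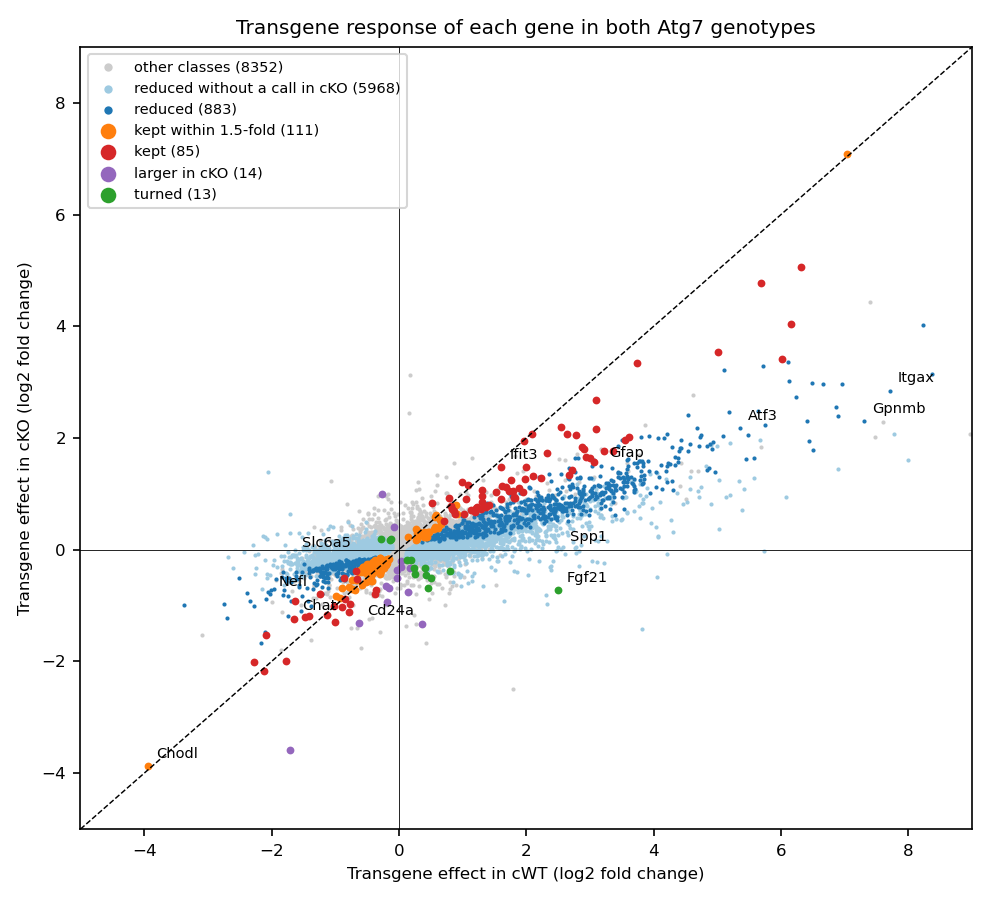
Each point is 1 of 15426 genes, with its log2 fold change for the transgene in cWT on the x axis and in cKO on the y axis, coloured by response class, with the number of genes in each class and a dashed line of equal response. Most genes lie close to the horizontal axis, while Chodl lies on the line of equal response at -3.94 and -3.87.

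Each gene was placed in a class by its calls. The response was reduced, with the same direction still called in cKO, for 883 genes, and reduced with no call left in cKO for 5968 genes. A response called in both genotypes with no called interaction was found for 196 genes, and for 111 of them the 95% interval of the interaction also lay within 1.5-fold either way. The direction turned for 13 genes, and the response was larger in cKO, or called in cKO alone, with a called interaction for 14. A further 17 genes were called in cKO alone with no called interaction. Another 3159 genes responded in cWT with neither a called interaction nor a call in cKO. For 71 genes the interaction was called with no called response in either genotype, and 5105 genes had no call at all. These counts moved with single libraries: without replicate 2 of cKO, 685 genes were called in cKO and 120 were called in both with no called interaction, and without replicate 3 of cKO SOD1 the latter numbered 112. Turned and larger genes together numbered 27, and 11 to 39 when 1 library was left out, with 11 without replicate 3 of cKO, 13 and 17 without replicates 2 and 3 of cKO SOD1.

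The reduced genes with the smallest interaction p were Dhrs1, Add3 and Cd34. Dhrs1, a short-chain dehydrogenase, went from 74.5 ± 3.43 to 560 ± 47.1 CPM in cWT and from 75.8 ± 5.23 to 151 ± 10 in cKO, so the response of 2.91 in cWT was 0.99 in cKO (interaction -1.92, standard error 0.09, adjusted p = 4.60e-09). Cd34, a sialomucin of blood vessels that microglia can also carry, went from 23.4 ± 1.82 to 210 ± 41.0 CPM in cWT and from 25.4 ± 0.999 to 42.6 ± 0.786 in cKO. The 10 lowest interactions included Atp6v0d2, Itgax, Gpnmb and the macrophage protease Mmp12. Atp6v0d2, a proton pump subunit found in osteoclasts and macrophages, had 0 reads in all 4 cWT libraries, 88 to 412 in the cWT SOD1 libraries, 0 to 6 in cKO and 4 to 22 in cKO SOD1. Its fitted value of -9.16 depends on the empty group and is no measure of size, and it was not called without replicate 1 of cKO (adjusted p = 0.0627). Itgax, the integrin CD11c, went from 0.605 ± 0.433 to 127 ± 36.4 CPM in cWT and from 1.73 ± 1.39 to 12.5 ± 3.6 in cKO (interaction -4.86, adjusted p = 6.87e-05). On the positive side Heyl, a Notch target of vascular smooth muscle, went from 13.2 ± 2.40 to 2.77 ± 0.290 CPM in cWT and from 9.14 ± 2.55 to 8.53 ± 1.20 in cKO (interaction 2.16, adjusted p = 8.84e-06).

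Without the transgene the genotypes differed little. In cKO against cWT 4 genes were called, 0.0259% of those tested (543 had an unadjusted p under 0.05, and DESeq2 called 17). Fgf21, a stress-induced hormone, was higher in cKO, and Chodl, Mmp9 and Mrvi1 were lower. The number called was 2 without replicate 2 of cKO and 9 without replicate 1 of cWT SOD1. Since the interaction is a difference of differences, these 4 starting differences are part of the interaction of these genes.

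Many motor neuron genes fell in both genotypes. Of 24 listed transmitter and identity genes, 23 were tested. In cWT 19 fell and 2 rose (median -1.33), and in cKO 15 fell (median -0.92). The interaction was called positive for 11 and negative for 2 (56.5%, against 45.0% of all genes). Its median was 0.44 against -0.005 over all genes, and under pan-neuronal scaling this median was -0.33. For 7 of the 23 the response was called in both genotypes with no called interaction, and the median response left in cKO was 44.9% against 20.8% over all genes with a called response in cWT. In whole-tissue RNA, fewer motor neurons and less RNA per motor neuron cannot be told apart.

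Chodl (mm9 chr16:78931193-78951973), a lectin-like membrane protein of fast motor neurons, read 75.5, 96.9, 88.4 and 83.0 CPM in cWT and 4.49, 4.58, 5.83 and 7.63 CPM in cWT SOD1. It read 52.0, 45.7, 55.3 and 51.5 CPM in cKO and 4.04, 3.82, 2.52 and 3.68 CPM in cKO SOD1. The SOD1 libraries lay far below their transgene-free libraries in both genotypes, and in each state the cKO libraries lay below all cWT libraries. Its response was -3.94 (standard error 0.14) in cWT and -3.87 in cKO, a fall of 15.3-fold and 14.6-fold, with an interaction of 0.07 (95% interval -0.38 to 0.51, adjusted p = 0.822).

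Chat (mm9 chr14:33221389-33279095), the enzyme that makes acetylcholine, read 31.3, 57.2, 47.5 and 48.7 CPM in cWT and 18.5, 12, 13 and 15.4 CPM in cWT SOD1. It read 32.3, 31.6, 36.4 and 30.8 CPM in cKO and 15.1, 12.8, 12.2 and 15.7 CPM in cKO SOD1. Both SOD1 groups overlapped at the same low level, and the interaction was 0.42 (95% interval -0.05 to 0.89, adjusted p = 0.138). It was called without replicate 1 of cWT, whose Chat level was the lowest of its group (0.57, adjusted p = 0.0143), and without replicate 1 of cWT SOD1 (0.54, adjusted p = 0.0471), and in females alone (0.64, adjusted p = 0.0298), while under pan-neuronal scaling it was -0.34. Its place among the kept genes depends on these choices. The transcription factors Isl1, Isl2 and Mnx1, the intermediate filament Prph and the neuropeptide gene Calca also fell in both genotypes with no called interaction, except that Mnx1 had one of 0.80 (adjusted p = 0.0365) without replicate 1 of cWT SOD1. Isl2, for example, went from 3.59 ± 0.721 to 0.83 ± 0.232 CPM in cWT and from 2.82 ± 0.455 to 0.622 ± 0.288 in cKO. The vesicular acetylcholine transporter Slc18a3 went from 77.7 ± 9.85 to 23.2 ± 1.89 CPM in cWT and from 59.9 ± 5.93 to 26.3 ± 4.66 in cKO, and its interaction of 0.56 was called (adjusted p = 0.0108).

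Other members of this list lost much less in cKO. Mmp9, a protease of the fast motor neurons that degenerate early in this model, read 21.2, 20.8, 20.4 and 21.7 CPM in cWT and 4.31, 4.14, 3.63 and 4.51 in cWT SOD1. It read 12.5, 12.6, 10.5 and 12.2 CPM in cKO and 6.91, 5.87, 5.54 and 6.91 in cKO SOD1. The cKO libraries were lower than the cWT libraries without the transgene and higher with it, without overlap in either state, and the interaction was 1.42 (standard error 0.13, adjusted p = 1.04e-06). Lhx4, a LIM homeobox factor of motor neurons, read 0.554, 0.224, 0.227 and 0.464 CPM in cWT SOD1 and 1.64, 1.31, 1.58 and 1.44 in cKO SOD1, against means of 3.81 ± 0.790 in cWT and 2.97 ± 0.245 in cKO (interaction 2.39, adjusted p = 2.09e-05). All 4 cKO SOD1 libraries were above all 4 cWT SOD1 libraries for this gene. The nicotinic receptor subunit Chrna4 went from 68.7 ± 3.31 to 31.4 ± 8.10 CPM in cWT and from 67.4 ± 3.18 to 62.9 ± 0.989 in cKO.

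Anxa4 and Stk32a did not follow the rest of the list. Anxa4, a calcium-dependent membrane-binding protein, rose from 13.4 ± 1.54 to 43.1 ± 7.01 CPM in cWT and read 13.9 ± 1.48 and 16 ± 0.895 without and with the transgene in cKO (interaction -1.48, adjusted p = 4.40e-06). Stk32a, a serine/threonine kinase, read 72.3, 122, 124 and 120 CPM in cWT SOD1 and 52.6, 50.7, 34.8 and 40.9 in cKO SOD1, against means of 79.7 ± 7.58 in cWT and 71.9 ± 13.3 in cKO. It rose in cWT by 0.46 and fell in cKO by 0.69, and the interaction was -1.15 (adjusted p = 8.17e-04).

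**Figure D2:**
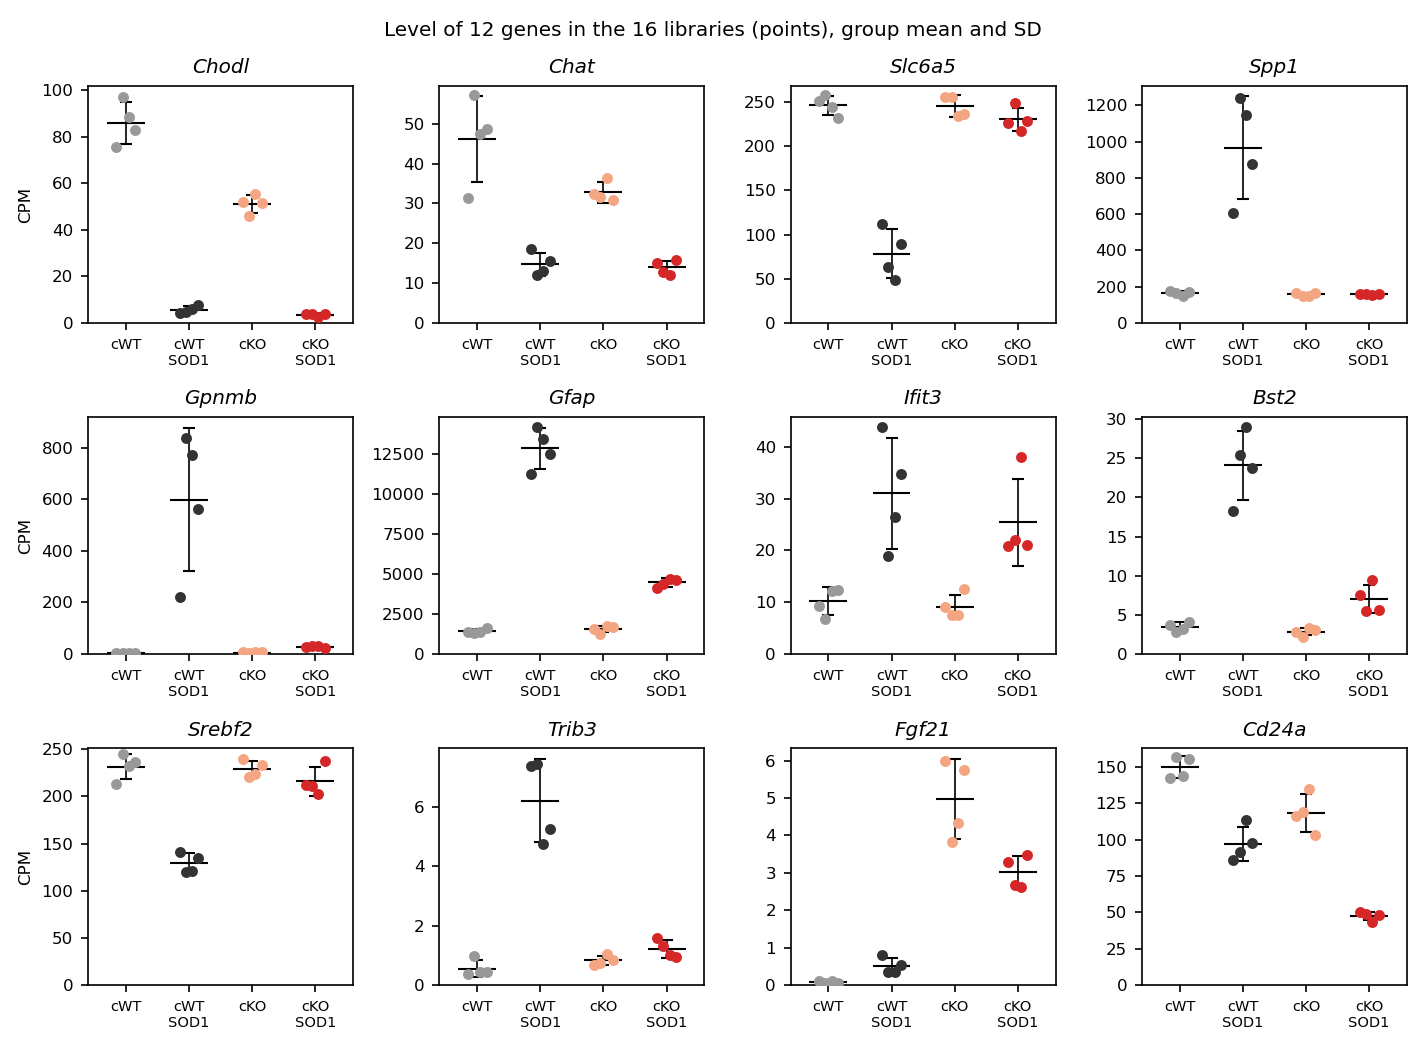
CPM of 12 genes in each library (points, 4 per group), with the group mean as a line and the SD as error bars, each panel on its own linear axis from 0. Chodl and Chat are as low in cKO SOD1 as in cWT SOD1, whereas Slc6a5 and Spp1 in cKO SOD1 stay at the level of the transgene-free libraries.

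Genes of other neurons fell in cWT. Of 27 tested spinal interneuron genes 21 fell in cWT and 1 in cKO, where 2.48% of all genes fell, and 16 had a positive interaction and 0 a negative one (median 0.56, and -0.22 under pan-neuronal scaling). Slc6a5, the glycine transporter that marks glycinergic neurons (mm9 chr7:57165669-57214863), read 251, 258, 245 and 232 CPM in cWT and 113, 63.3, 49.2 and 89.3 in cWT SOD1. It read 256, 256, 234 and 236 CPM in cKO and 227, 249, 217 and 229 in cKO SOD1. The cKO SOD1 libraries overlapped those of cKO and lay above every cWT SOD1 library, and the interaction was 1.56 (95% interval 1.08 to 2.03, adjusted p = 4.43e-05). Slc17a6 and Slc32a1, the vesicular transporters of glutamate and of inhibitory transmitters, had interactions of 1.06 and 1.08. Chrm2, a muscarinic receptor, was the 1 member called in cKO as well, at -0.49 against -1.84 in cWT.

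Neuronal receptors and channels fell in cWT too. Of 13 inhibitory receptor genes 11 fell and 1 rose in cWT and 0 were called in cKO, where the median response was -0.16. In this list 11 interactions were positive (median 0.73, and -0.03 under pan-neuronal scaling). Glra1, the adult glycine receptor subunit, read 65.9, 45.2, 36.3 and 59.0 CPM in cWT SOD1 and 145, 140, 137 and 139 in cKO SOD1, against 154 to 181 in cWT. The cKO SOD1 libraries lay below every cKO library by a small margin that was not called, and the interaction was 1.5 (adjusted p = 6.00e-06). Of 20 voltage-gated channel genes 18 fell in cWT and 1 in cKO, and 18 interactions were positive (median 0.65, and -0.11 under pan-neuronal scaling), with Scn8a, the nodal sodium channel, at 1.29. Of 26 pan-neuronal and synaptic genes 23 fell and 1 rose in cWT and 6 fell in cKO, and 23 interactions were positive and 1 negative (median 0.64). These genes define the pan-neuronal scaling, which therefore gives no separate value for them. The negative one was Gap43, a growth-associated protein.

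Neurofilament genes fell in both genotypes. All 5 tested genes fell in cWT (median -1.82) and 4 fell in cKO (median -0.82), and 4 interactions were positive. Nefl, the light subunit, read 3044, 3116, 2846 and 3027 CPM in cWT and 984, 578, 538 and 862 in cWT SOD1. It read 2706, 2542, 2640 and 2517 CPM in cKO and 1540, 1506, 1368 and 1567 in cKO SOD1, so the 4 groups did not overlap. The interaction was 1.22 (adjusted p = 8.73e-05), with 39.5% of the log2 response left in cKO. Nefh and Nefm behaved alike, at 1.21 and 1.0, while Ina, which other neurons carry as well, was called in cWT alone (-1.37 against -0.13).

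Many genes of the axon injury list were induced less in cKO, and which cells they came from was not tested. Of 22 tested axon injury genes 16 rose and 2 fell in cWT (median of the list 1.20) and 5 rose and 2 fell in cKO (median 0.22), and 15 interactions were negative and 1 positive. Atf3, a transcription factor of axotomised neurons, read 34.5, 50.0, 56.2 and 51.1 CPM in cWT SOD1 and 10.4, 9.32, 7.87 and 8.35 in cKO SOD1, against 0.871 to 1.66 in cWT and 1.72 to 2.39 in cKO. It rose in both genotypes without overlap, by 5.36 in cWT and 2.17 in cKO, and the interaction was -3.18 (adjusted p = 7.48e-07). Chl1, an adhesion molecule, had an interaction of -1.09 and Gadd45a, a DNA damage response gene, one of -1.41. Gdf15, a stress cytokine, had 1 to 4 reads in the cWT libraries, 47 to 95 in cWT SOD1, 5 to 9 in cKO and 6 to 11 in cKO SOD1. Lifr, a receptor of the interleukin 6 family, was the member kept within 1.5-fold, at -0.42 and -0.35. Of 18 immediate early genes 8 rose and 5 fell in cWT (72.2%, against 66.3% of all genes) and 1 rose in cKO. The list had 7 negative interactions, Fosl2 and Btg2 among them, and 2 positive ones, among them Arc at 1.20. Its called interactions made up 50%, against 45.0% of all genes.

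**Figure D3:**
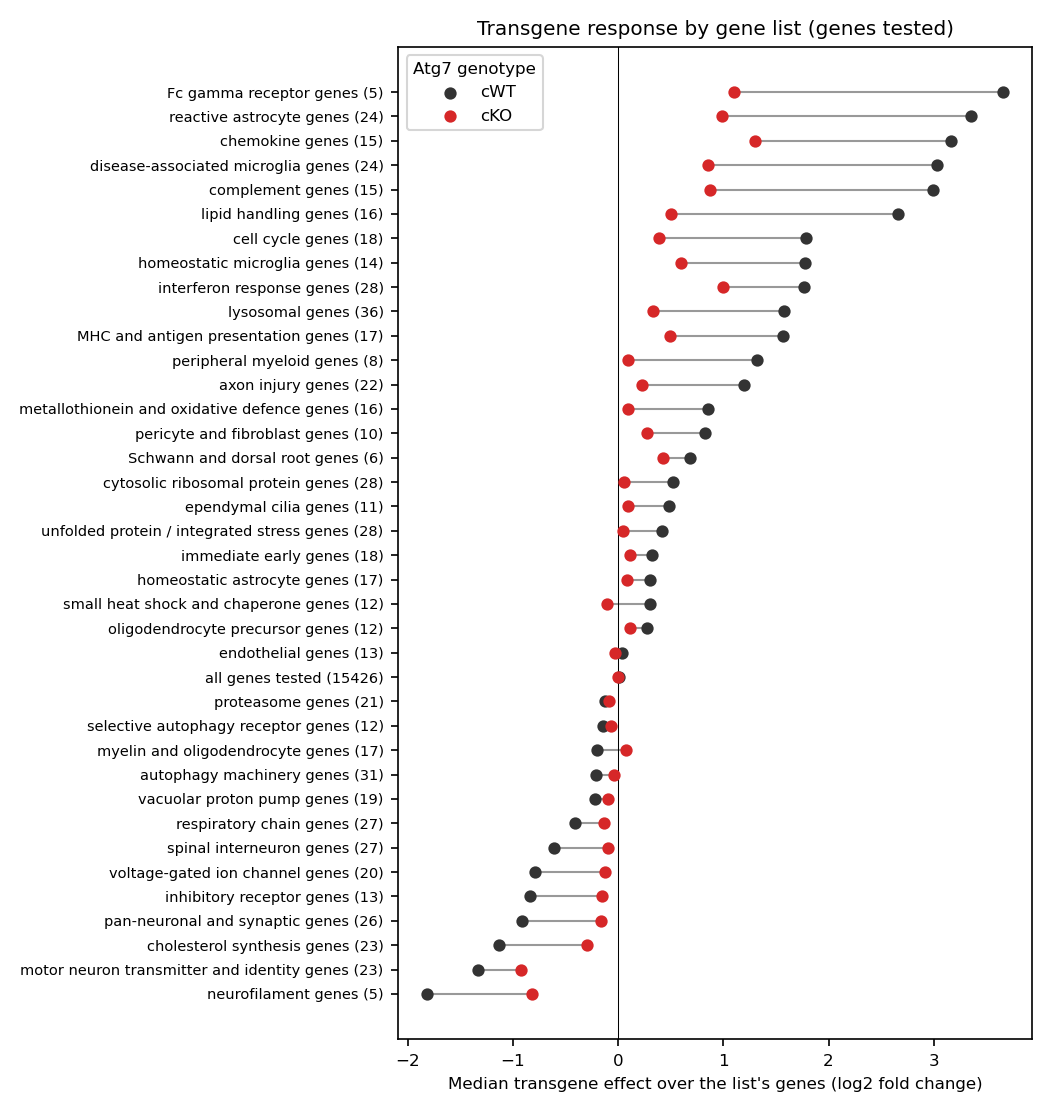
Median transgene log2 fold change of each gene list with at least 5 tested genes in cWT (dark points) and in cKO (red points), with the number of tested genes in brackets. The red points lie nearer to 0 for nearly all lists, for example at 3.03 and 0.85 for disease-associated microglia genes and at -1.33 and -0.92 for motor neuron genes.

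Microglial genes rose much less in cKO than in cWT. All 24 disease-associated microglia genes, the phagocytic and lipid-processing programme of activated microglia, rose in cWT (median 3.03) and 20 still rose in cKO (median 0.85), and 23 interactions were negative (median -2.29). Gpnmb, a lysosomal glycoprotein of phagocytes (mm9 chr6:48986517-49008181), read 3.02, 4.45, 2.44 and 5.26 CPM in cWT and 222, 837, 774 and 563 in cWT SOD1. It read 7.17, 2.44, 7.81 and 5.95 CPM in cKO and 28.2, 32.8, 30.6 and 23.3 in cKO SOD1. The SOD1 groups did not overlap each other or their transgene-free groups, and a rise of 158-fold in cWT stood against 4.92-fold in cKO (interaction -5.01, 95% interval -6.22 to -3.79, adjusted p = 6.72e-06). Ctsl, Cd63 and Cd9 had interactions of -1.95, -1.72 and -1.67.

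Spp1, which encodes osteopontin (mm9 chr5:104864130-104870072), responded in cWT alone. It read 175, 166, 150 and 170 CPM in cWT and 608, 1239, 1144 and 877 in cWT SOD1. It read 163, 147, 151 and 167 CPM in cKO and 161, 160, 155 and 159 in cKO SOD1. All 4 cKO SOD1 values fell within the cKO range, and the response was 2.55 in cWT and 0.01 in cKO (interaction -2.53, standard error 0.21, adjusted p = 3.45e-07). Spp1 is also carried by some motor neurons, and its source in these libraries was not tested.

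Most markers of resting microglia moved the same way with smaller values. Of 14 homeostatic microglia genes 13 rose in cWT (median 1.77) and 10 in cKO (median 0.60), with 11 negative interactions and a positive one for the hexose transporter Slc2a5 at 1.21, whose call was lost in 9 of the 16 analyses that left out 1 library (adjusted p 0.0517 to 0.0868 in these). Cx3cr1, the fractalkine receptor, went from 46.3 ± 3.53 to 231 ± 29.5 CPM in cWT and from 47.5 ± 7.85 to 88.2 ± 5.61 in cKO. Sall1, a transcription factor of microglia, was kept within 1.5-fold at 0.39 and 0.33. Of 15 complement genes 14 rose in cWT (median 3.0) and 9 in cKO (median 0.87), with 14 negative interactions. C1qa, a chain of the initiating complex, went from 44.6 ± 7.21 to 753 ± 190 CPM in cWT and from 46.3 ± 9.06 to 115 ± 5.54 in cKO (interaction -2.77, adjusted p = 5.70e-07). All 5 Fc gamma receptor genes rose in cWT and 4 in cKO, and all 5 interactions were negative (median -2.46). Of 17 antigen presentation genes 15 rose in cWT and 9 in cKO, with 14 negative interactions, B2m at -1.82 and Tapbp at -0.81. Among 15 tested chemokine genes 12 rose and 2 fell in cWT and 7 rose in cKO. Their interactions were negative for 7, and Cx3cl1, the neuronal fractalkine, was the 1 positive at 0.74 (53.3% called, against 45.0% of all genes).

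Markers of other cells that the dissection could hold differed among themselves. The 11 matched peripheral myeloid genes summed to 27.8 to 43.6 CPM in cWT, 311 to 770 in cWT SOD1, 24.7 to 57.5 in cKO and 78.2 to 106 in cKO SOD1, with none of the 11 at 0 in every library of a group. Most of this sum was Lyz2, a lysozyme that activated microglia also make, at 534 ± 199 CPM in cWT SOD1 and 68.9 ± 11.9 in cKO SOD1. Of the 8 tested, 4 rose in cWT (50%, against 66.3% of all genes called) and 1 rose in cKO. In this list 3 interactions were negative (37.5%, against 45.0% of all genes called), those of Lyz2, Mrc1 and Cd163. Ccr2 stayed under 1 CPM on average in every group. The 12 matched T cell and natural killer genes summed to 4.31 to 5.27 CPM in cWT SOD1 and to 0.83 to 2.04 CPM in the other groups. Of 6 tested Schwann and dorsal root genes 3 had negative interactions (50%, against 45.0% of all genes called). None was called among 3 skeletal muscle genes, 2 T cell genes and 1 blood gene. In cWT both T cell genes rose, 1 skeletal muscle gene fell and the blood gene was not called, with blood genes summing to 2.22 to 11.3 CPM in cWT and 1.26 to 5.66 in cWT SOD1. The part of infiltrating or peripheral cells in the microglial results was not tested.

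Every reactive astrocyte gene on the list responded less in cKO. All 24 rose in cWT (median 3.35), 17 rose in cKO (median 0.99), and all 24 interactions were negative (median -2.18), also in each analysis that left out 1 library. They were negative under pan-neuronal scaling too, but that scaling moves the median interaction of all genes to -0.79. It could therefore hardly have shown otherwise for negative interactions. Gfap (mm9 chr11:102748650-102758514), the astrocyte intermediate filament, read 1392, 1340, 1369 and 1616 CPM in cWT and 11247, 14151, 13446 and 12492 in cWT SOD1. It read 1592, 1278, 1726 and 1694 CPM in cKO and 4136, 4402, 4699 and 4651 in cKO SOD1. The SOD1 groups did not overlap, and the rise of 8.98-fold in cWT was 2.84-fold in cKO (interaction -1.66, standard error 0.13, adjusted p = 2.77e-07). Serpina3n, a secreted protease inhibitor, had an interaction of -3.0 and Osmr, the oncostatin M receptor, one of -2.47. Of 17 homeostatic astrocyte genes 9 rose and 3 fell in cWT (70.6%, against 66.3% of all genes), and 2 rose and 1 fell in cKO. Of their interactions 8 were negative and 3 positive (64.7%, against 45.0% of all genes). Aqp4, the water channel, had an interaction of -1.07, and the transporters Slc6a11 and Slc7a10, which fell in cWT, had positive ones of 1.16 and 1.23.

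**Figure D4:**
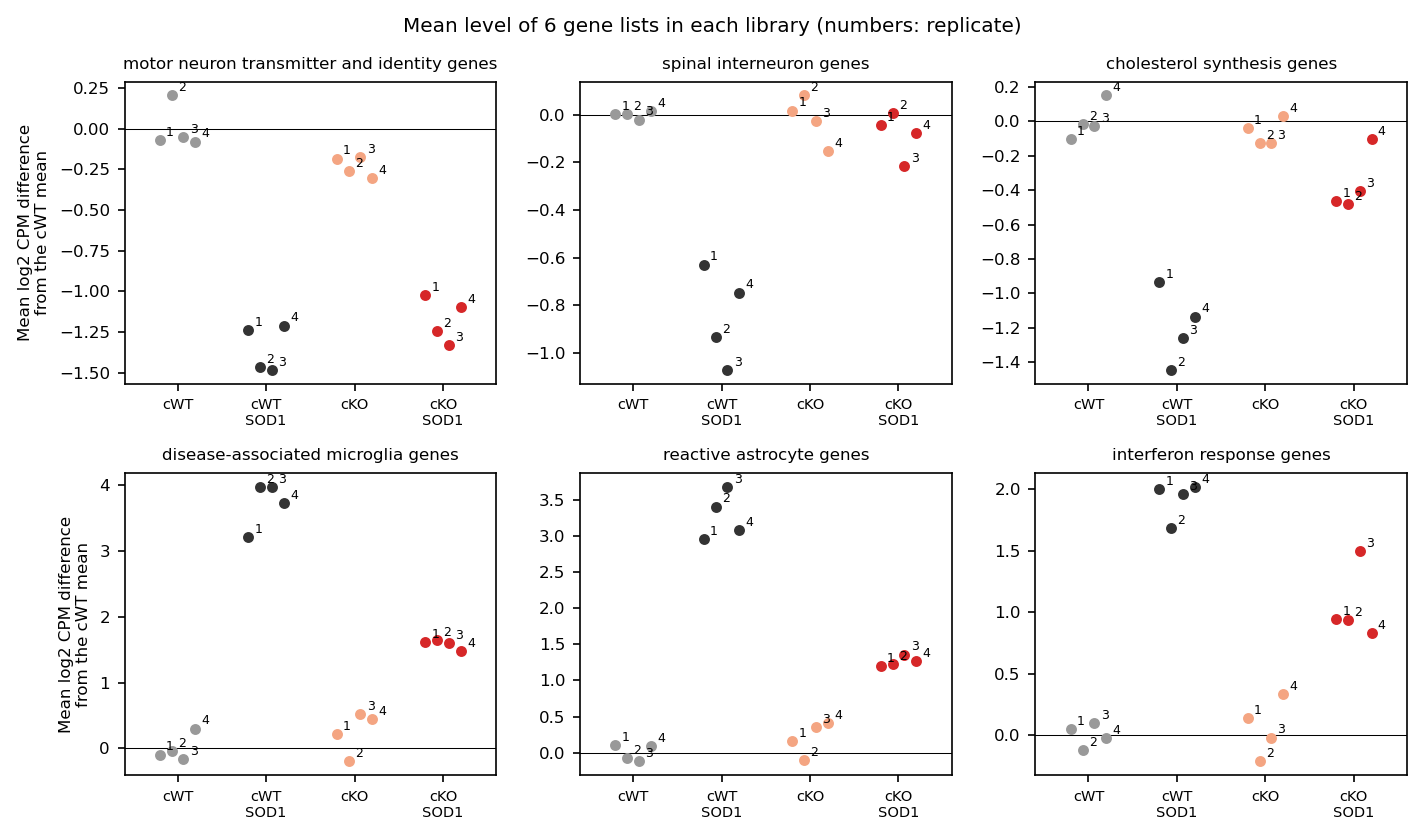
Mean log2 CPM difference of 6 gene lists from their cWT mean in each library, with the replicate number beside each point. Motor neuron genes reach -1.33 to -1.02 in cKO SOD1 against -1.48 to -1.21 in cWT SOD1, disease-associated microglia genes 1.48 to 1.65 against 3.22 to 3.98, and replicate 3 of cKO SOD1 stands high for interferon response genes at 1.49.

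Interferon response genes rose in both genotypes, and 1 library weighed on how many were called as reduced. All 28 genes rose in cWT (median 1.77) and 23 rose in cKO (median 1.0), 18 interactions were negative and 9 genes rose in both genotypes with no called interaction, with a median of 52.6% of the log2 response left in cKO. The list's mean level was 0.83 to 0.94 in 3 cKO SOD1 libraries and 1.49 in replicate 3, against 1.68 to 2.02 in cWT SOD1. Without replicate 3 of cKO SOD1 the interaction was negative for 25 of 28, 2 genes were left with a response called in both genotypes and no called interaction, and the cKO median was 0.76. Over all analyses that left out 1 library the negative interactions numbered 11 to 25 and the genes kept 2 to 15.

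Bst2 was called as reduced, while Ifit3 had no called interaction and a wide interval that leaves room for a difference. Bst2, the virus-tethering protein tetherin, read 18.3, 25.4, 28.9 and 23.7 CPM in cWT SOD1 and 7.55, 5.55, 9.41 and 5.62 in cKO SOD1, against 2.85 to 4.10 in cWT and 2.23 to 3.27 in cKO. It rose in both genotypes with no overlap between any SOD1 and transgene-free group, and the interaction was -1.5 (adjusted p = 2.65e-04). Ifit3, an antiviral RNA-binding protein, read 43.9, 18.9, 26.5 and 34.8 CPM in cWT SOD1 and 20.8, 22.0, 38.0 and 21 in cKO SOD1. The SOD1 groups overlapped, with replicate 3 the highest of cKO SOD1, and the interaction was -0.13 (95% interval -0.92 to 0.67, adjusted p = 0.811). Ifitm3, which blocks viral entry, had an interaction of -1.38, and Irf7, the amplifying transcription factor of the response, one of -0.71 that was not called (adjusted p = 0.123) and was called without replicate 3 of cKO SOD1 (-0.99, adjusted p = 0.0184).

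Interferon-induced promoters are known for an interferon-stimulated response element, searched here as GAAANNGAA on both strands in the 300 bases from 250 before to 50 after the start site in RefSeq's promoters of GRCm38.p6. It was held by 14 of the 20 list genes with a promoter among them (70.0%), against 2812 of all 32851 promoters (8.56%). It was present in 9 of 14 reduced genes and in 4 of 5 genes kept, meaning called in both genotypes with no called interaction. The promoters of Bst2 (chr8:71537423-71537722, minus strand) and Ifitm3 (chr7:141010695-141010994, minus strand) are shown because, of the list members named for the smallest interaction p, these hold the element. Each holds it 2 times, overlapping in Bst2, as do 2 other reduced genes of the list. The 4 genes kept that hold the element have it 2 or 3 times, Ifit3 among them with 3. Capitals mark the matches in the promoters shown.
Bst2: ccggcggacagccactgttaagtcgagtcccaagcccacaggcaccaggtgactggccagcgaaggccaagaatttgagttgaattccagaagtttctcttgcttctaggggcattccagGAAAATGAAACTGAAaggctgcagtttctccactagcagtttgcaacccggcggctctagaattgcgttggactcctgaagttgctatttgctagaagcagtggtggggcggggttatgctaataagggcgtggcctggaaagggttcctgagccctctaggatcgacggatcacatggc
Ifitm3: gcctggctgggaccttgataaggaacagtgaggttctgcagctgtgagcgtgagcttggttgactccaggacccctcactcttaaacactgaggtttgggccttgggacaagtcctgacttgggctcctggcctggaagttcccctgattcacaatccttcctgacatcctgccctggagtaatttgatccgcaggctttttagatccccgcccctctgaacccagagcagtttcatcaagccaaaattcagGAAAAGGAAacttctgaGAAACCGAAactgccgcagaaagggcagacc
A further 3 elements were searched in the same way. TCACGTGA, the site read by TFEB, was in 3 of 30 lysosomal promoters and 0.974% of all. TCACCCCAC, a sterol response element, was in 0 of 16 cholesterol synthesis promoters and 0.551% of all, and TGATGNAAT, the C/EBP-ATF element, was in 2 of 28 stress response promoters and 0.965% of all.

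Lysosomal genes rose with the glial genes. Of 36 tested 32 rose and 2 fell in cWT (median 1.58) and 19 rose in cKO (median 0.33), and 31 interactions were negative and 1 positive. Grn, which encodes progranulin, went from 46.6 ± 2.10 to 491 ± 116 CPM in cWT and from 51.2 ± 4.19 to 111 ± 6.64 in cKO (interaction -2.28, adjusted p = 2.77e-07). Of 16 lipid handling genes 15 rose in cWT and 5 in cKO, with 11 negative interactions. Abca1, the cholesterol exporter, went from 62.3 ± 4.60 to 492 ± 115 CPM in cWT and from 73.9 ± 5.79 to 113 ± 12.2 in cKO. Lpl, lipoprotein lipase, went from 5.97 ± 1.38 to 170 ± 23 CPM in cWT and from 10.3 ± 4.29 to 37.4 ± 3.02 in cKO. The vacuolar proton pump split, with 11 genes lower and 5 higher in cWT, 2 higher in cKO, 8 positive interactions (Atp6v0a1 at 0.51) and 6 negative ones (Tcirg1 at -1.12), and under pan-neuronal scaling 0 were positive and 18 negative. Of 18 cell cycle genes 16 rose in cWT and 6 in cKO, and 14 interactions were negative, Mki67 and Top2a at -2.05 and -2.09.

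Cholesterol synthesis genes fell in cWT and less in cKO. Of 23 tested genes 22 fell in cWT (median -1.13) and 3 in cKO (median -0.30), and 21 interactions were positive and 0 negative (median 0.89, and 0.12 under pan-neuronal scaling). Srebf2, the transcription factor that drives the pathway (mm9 chr15:81977699-82035390), read 213, 245, 233 and 236 CPM in cWT and 141, 119, 121 and 135 in cWT SOD1. It read 240, 221, 224 and 233 CPM in cKO and 212, 211, 203 and 237 in cKO SOD1. The cWT SOD1 libraries lay below all others and both cKO groups overlapped. The interaction was 0.75 (standard error 0.09, adjusted p = 8.96e-06) and turned to -0.020 under pan-neuronal scaling. Of 17 myelin genes 9 fell and 2 rose in cWT (64.7%, against 66.3% of all genes) and 1 rose in cKO. The list had 8 positive and 2 negative interactions (58.8%, against 45.0% of all genes). Its median interaction was 0.34, and -0.44 under pan-neuronal scaling. Fa2h, which makes hydroxylated myelin lipids, had the smallest p at 0.81. Of 12 oligodendrocyte precursor genes 6 rose and 2 fell in cWT (66.7%, against 66.3% of all genes) and 0 were called in cKO. Among these genes 5 interactions were negative, Vcan and Cspg4 at -0.99 and -0.93 among them, and 1 positive (50%, against 45.0% of all genes).

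Stress genes of the endoplasmic reticulum and of the integrated stress response, which meets misfolded protein and amino acid shortage, mostly rose in cWT. Of 28 tested 21 rose and 3 fell in cWT and 1 rose in cKO, where 4.80% of all genes rose, and 18 interactions were negative and 1 positive (median -0.42). Trib3, a pseudokinase induced by ATF4 and CHOP, read 7.38, 7.43, 4.76 and 5.24 CPM in cWT SOD1 and 1.58, 1.31, 1.02 and 0.945 in cKO SOD1, against 0.358 to 0.971 in cWT and 0.690 to 1.05 in cKO. The cKO SOD1 libraries overlapped those of cKO and lay below all of cWT SOD1 (interaction -2.95, adjusted p = 2.56e-05). Ddit3, which encodes CHOP, had an interaction of -1.10 and Cebpg, a C/EBP-family partner of ATF4, one of -0.68. Atf4 had an interaction of -0.17 (adjusted p = 0.0113) with no called response in either genotype, and went from 104 ± 3.63 to 109 ± 1.97 CPM in cWT and from 118 ± 3.33 to 111 ± 1.36 in cKO.

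Oxidative defence genes were reduced in part, and the calls among small heat shock genes lay nearer the share of all genes. Hmox1, which degrades haem, read 52.5, 75.5, 79.0 and 68.2 CPM in cWT SOD1 and 9.72, 10.7, 10.1 and 12 in cKO SOD1, against 5.14 to 8.11 in cWT and 6.48 to 7.85 in cKO. It rose in both without overlap, by 10.5-fold in cWT and 1.53-fold in cKO, and the interaction was -2.77 (adjusted p = 1.02e-07). Of the 16 genes of this list 10 rose and 4 fell in cWT (87.5%, against 66.3% of all genes) and 4 rose and 2 fell in cKO. Interactions were called for 81.25% of them, against 45.0% of all genes. There were 3 positive interactions, 0 under pan-neuronal scaling, and 10 negative ones, the antioxidant Prdx6 at -1.88 and the metallothioneins Mt1 and Mt2 at -2.0 and -2.07. Of 12 small heat shock and chaperone genes 5 rose and 4 fell in cWT (75%, against 66.3% of all genes) and 1 rose and 1 fell in cKO. These genes had 5 negative interactions and 2 positive ones (58.3%, against 45.0% of all genes), the latter 0 under pan-neuronal scaling. Hspb1, a small heat shock protein, went from 11.1 ± 2.65 to 158 ± 77 CPM in cWT and from 9.99 ± 1.58 to 18.9 ± 3.12 in cKO. Bag3, a co-chaperone of selective autophagy, read 48.8 ± 3.89 and 48.1 ± 5.37 CPM in cWT and cWT SOD1 and fell from 46.7 ± 3.36 to 36.3 ± 1.66 in cKO (interaction -0.34, adjusted p = 0.0202).

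Autophagy genes themselves changed by small amounts. Of 31 tested genes of the machinery 19 fell and 5 rose in cWT (77.4%, against 66.3% of all genes) and 0 were called in cKO. The machinery had 15 positive and 4 negative interactions (61.3%, against 45.0% of all genes), with a median of 0.20, and -0.59 under pan-neuronal scaling. Atg9a, the lipid scramblase that seeds autophagosomes, went from 131 ± 2.85 to 90.4 ± 3.71 CPM in cWT and from 132 ± 6.03 to 131 ± 4.85 in cKO (interaction 0.52, adjusted p = 8.48e-06). Ulk1, the initiating kinase, had an interaction of 0.49 and Gabarap, an LC3 relative, one of -0.56, and Atg9a and Ulk1 turned negative under pan-neuronal scaling. Of 12 selective receptor genes 7 fell and 2 rose in cWT (75%, against 66.3% of all genes), and 2 fell in cKO. They had 3 positive interactions and 1 negative one, that of Sqstm1 (33.3%, against 45.0% of all genes), and 0 and 12 under pan-neuronal scaling. Sqstm1, which encodes the cargo receptor p62 (mm9 chr11:50013654-50024292), read 510, 492, 506 and 544 CPM in cWT and 517, 567, 590 and 559 in cWT SOD1. It read 600, 605, 598 and 553 CPM in cKO and 516, 519, 501 and 539 in cKO SOD1. The cKO libraries stood above all cWT libraries, a difference of 0.20 that was not called, the response was 0.12 in cWT and -0.18 in cKO, and the interaction was -0.31 (adjusted p = 2.41e-03).

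Respiratory chain and ribosomal protein genes changed in cWT. Of 27 respiratory chain genes 24 fell and 1 rose in cWT and 0 were called in cKO, where the median response was -0.13. In this list 17 interactions were positive and 1 negative (median 0.27, and -0.51 under pan-neuronal scaling). Of 28 ribosomal protein genes 22 rose in cWT and 0 were called in cKO, and 16 interactions were negative (median -0.46). Among 21 proteasome genes 9 fell and 1 rose in cWT (47.6%, against 66.3% of all genes), 0 were called in cKO, and 1 interaction was called, for Psmc1 at 0.27. Among 13 endothelial genes 2 interactions were positive (15.4%, against 45.0% of all genes called), among them Kdr, a receptor of vascular endothelial growth factor, at 1.15. In cWT 3 of these genes were lower and 2 higher. Of 10 pericyte and fibroblast genes 7 were higher and 1 lower in cWT. In that list 5 interactions were negative (50%, against 45.0%), with the matrix proteins Lum and Dcn at -1.68 and -1.36. Among 11 ependymal cilia genes 7 rose in cWT (63.6%) and 0 were called in cKO, and 2 interactions were negative (18.2%).

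**Figure D5:**
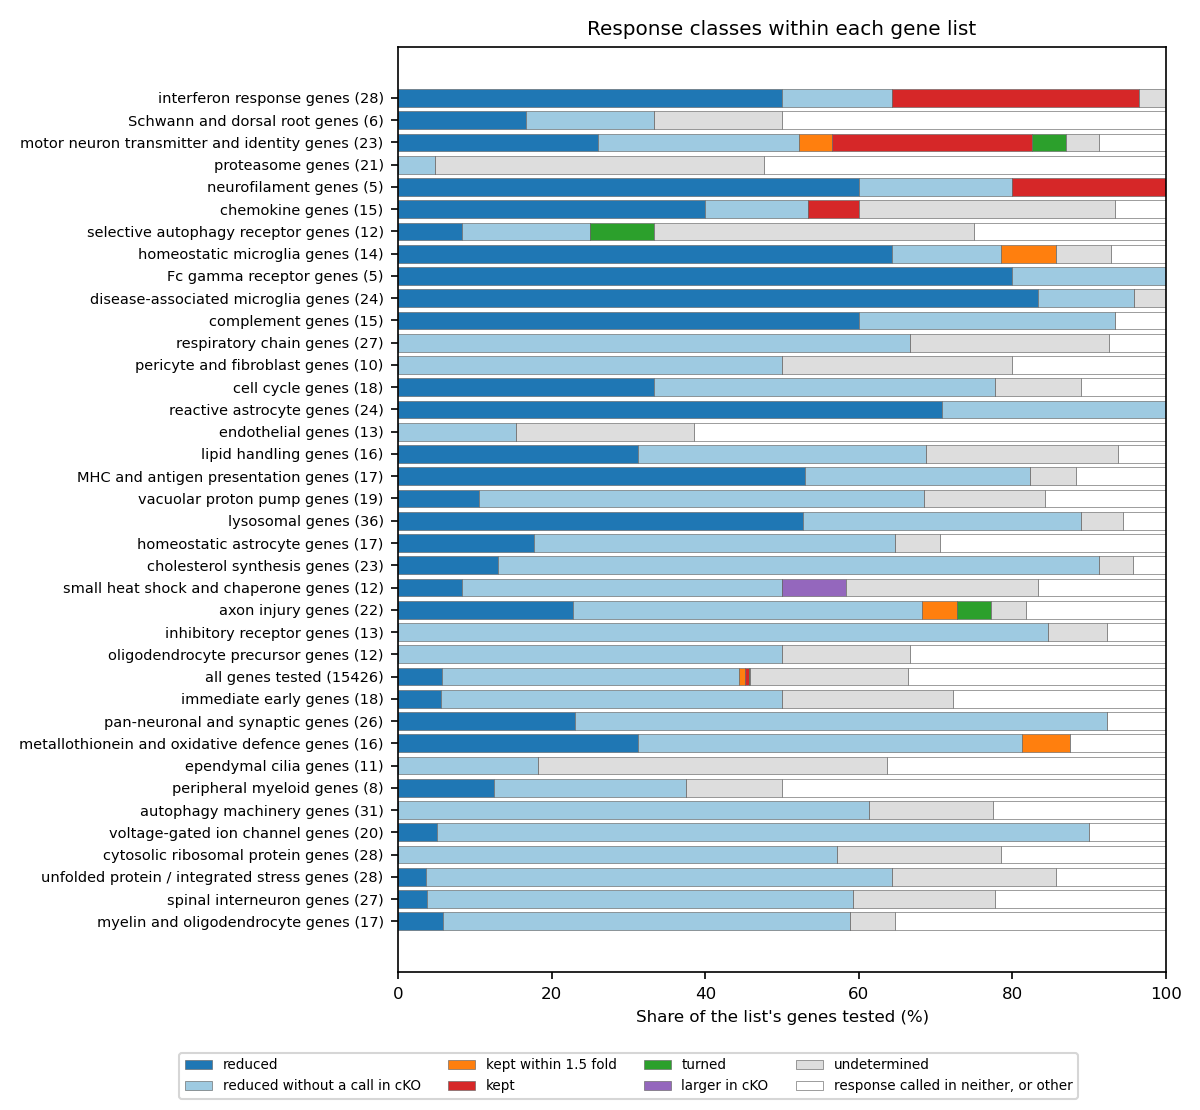
Share of the tested genes of each list in each response class, in percent, with the number of tested genes in brackets and the lists ordered by the median share of the response left in cKO. A response called in both genotypes with no called interaction is shown for 9 of 28 interferon and 7 of 23 motor neuron genes, against 196 of all 15426. Of these, 0 interferon genes and 1 motor neuron gene were kept within 1.5-fold, so a missing call is not a sign of an equal response. Reactive astrocyte and disease-associated microglia genes are nearly all reduced, against 6851 of all 15426.

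Genes kept within 1.5-fold were mostly genes with small responses. Of the 111, 85 fell and 26 rose, the median size of the response was 0.40 in cWT and 0.30 in cKO, and 2 had more than a 2-fold response in cWT. These were Chodl and Serpinf2, and Serpinf2 had 0 reads in all 4 cKO libraries, so its fitted interaction is no measure. Fxyd7, a small membrane protein of the FXYD family, was kept at -0.78 in cWT and -0.67 in cKO, as was Tpd52l1 at -0.92 and -0.87, and Tmie, a component of hair cell transduction, rose in both by 0.90 and 0.81. Of the 85 genes called in both with no called interaction but a wider interval, 68 responded by more than 2-fold in cWT, and their wide intervals leave room for a difference.

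The 13 turned genes were named in full because the class is small, and 10 of them rose in cWT. They were Lcp1, Serpinb6a, Htatip2, Fgf21, Angptl2, Azi1, Cpt1a, Gem, Gnpda2, Stk32a, Josd2, Tmem132a and Sqstm1. Lcp1, the leukocyte actin bundler plastin 2, went from 64.2 ± 2.46 to 112 ± 19.7 CPM in cWT and from 54.7 ± 5.14 to 41.9 ± 2.05 in cKO. It rose by 0.81 in cWT and fell by 0.39 in cKO (interaction -1.19, adjusted p = 7.54e-06). Fgf21 (mm9 chr7:52869260-52870860) had 1 to 2 reads in each cWT library, 6 to 13 in cWT SOD1, 72 to 118 in cKO and 51 to 70 in cKO SOD1. In CPM it read 6.0, 3.82, 4.32 and 5.75 in cKO and 3.28, 2.67, 2.61 and 3.48 in cKO SOD1, with both cKO groups above all cWT libraries. Its interaction of -3.22 (adjusted p = 8.89e-05) holds the starting difference of 5.81 between the genotypes (adjusted p = 2.52e-08).

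For 14 genes the interaction was called with a response that was larger in cKO or called in cKO alone. Cd24a, a membrane glycoprotein of young neurons and ependyma, read 142, 157, 144 and 155 CPM in cWT and 85.7, 91.4, 113 and 97.9 in cWT SOD1. It read 116, 119, 135 and 103 CPM in cKO and 49.9, 48.7, 43.4 and 48.1 in cKO SOD1. The cKO SOD1 libraries lay below every other library, and the response was -0.62 in cWT and -1.31 in cKO (interaction -0.69, adjusted p = 1.79e-04). Layn, a hyaluronan receptor, read 12.6 ± 1.58 and 11.0 ± 1.32 CPM in cWT and cWT SOD1 and fell from 8.25 ± 0.964 to 4.29 ± 0.203 in cKO. Uts2, the urotensin 2 peptide gene, read 12.6 ± 5.71 and 10.5 ± 2.61 CPM in cWT and cWT SOD1 and rose from 10.1 ± 2.04 to 20.1 ± 2.27 in cKO (interaction 1.26, adjusted p = 0.00825).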

How the data were processed

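The submitters' processing notes name bcl2fastq 1.8.4, TopHat2 2.0.4, Cufflinks 2.0.2 and the mouse build mm9. The authors deposited whole-number counts per gene, and how reads were counted, and whether by strand, is not given in the sources used here. The authors also deposited FPKM values per gene, which served for alternatives alone. The labels' protocols give Trizol and column extraction, poly-A selection and a TruSeq RNA kit.

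Counts were analysed in R 4.3.3 with edgeR 4.0.16 (TMM factors, default filter on low counts by group, quasi-likelihood test, 1 coefficient per group, all 16 libraries in 1 fit). Of 23284 genes 3312 had no read in any library and 15426 passed the filter. No column of the tables was left without a sample. Alternatives used limma 3.58.1, DESeq2 1.42.0, other scalings, filters, the FPKM values, sex, the replicate number as a block and each library left out. Sex was read from Xist against Y-linked counts, with 2 females and 2 males in each group. The script was tested on simulated data. No 2 libraries of a group agreed within sampling noise.

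A gene was placed in a response class by its calls in both transgene contrasts and in the interaction, and kept within 1.5-fold means that the 95% interval of the interaction lay inside 1.5-fold. The share of a response left in cKO is the cKO log2 fold change over the cWT one. The 40 gene lists were written from general knowledge, and the comparison, lists and members were chosen with earlier results of these data known. Named genes are the 10 highest and 10 lowest called interactions, up to 6 genes per class and up to 4 members per list by smallest interaction p, with list members that were kept within 1.5-fold, turned or larger, at a mean of at least 1 CPM outside the lists. Calca, Chat, Cpt1a, Gap43, Gem, Gnpda2, Ifit3, Irf7, Isl1, Isl2, Josd2, Mnx1, Mrvi1, Prph, Serpinf2, Slc18a3, Slc2a5 and Tmem132a were chosen after their values were seen. Some genes that the rule names are not reported here. Promoters are those of RefSeq on GRCm38.p6, while gene positions are those of the deposited mm9 tables.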

Additional observations from a re-analysis of the deposited data

Results flagged for a closer look

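The interaction itself marks a difference between the genotypes, since the transgene response differed for 6949 genes, 3582 with a positive and 3367 with a negative value.

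A single library stood far from the other 3 of its group in 14 of 252 groups of 4 examined (23 genes and 40 list means in each of the 4 groups), or 5.56%, and chance gives about 1 in 20. In cWT, replicate 2 was high for Trib3 at 0.971 CPM, with the others at 0.358 to 0.444, and for the motor neuron list, whose mean log2 difference from the cWT mean was 0.20. The other list values are on that scale. Replicate 4 of cWT was high for metallothionein and oxidative defence genes at 0.048. In cKO, Mmp9 was lowest in replicate 3 at 10.5 CPM, Sqstm1 in replicate 4 at 553 CPM, inhibitory receptor genes in replicate 4 at -0.035 and skeletal muscle genes in replicate 2 at -0.44. In cWT SOD1, Stk32a was lowest in replicate 1 at 72.3 CPM, with the others at 120 to 124, and interferon response genes were lowest in replicate 2 at 1.68. In cKO SOD1, Atg7 was lowest in replicate 2 at 20.4 CPM, with the others at 29.3 to 29.6.

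Replicate 3 of cKO SOD1 stood apart in 4 of these. It was highest for interferon response genes at 1.49, with the others at 0.83 to 0.94, and for Ifit3 at 38.0 CPM, and lowest for axon injury genes at 0.65 and for Anxa4 at 14.6 CPM.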

How the results depend on the processing

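The number of called interactions stayed within 1.5 times of 6949 under RLE and upper-quartile factors, both filters, DESeq2, voom with a weight per group, both FPKM fits, sex as a covariate and the replicate block. Each sex alone, with 2 libraries per group, gave fewer calls, and the cause was not tested. Males alone gave 2863 interactions, 2841 reduced, 30 kept and 3 turned or larger genes, 91 calls in cKO and 1 gene differing without the transgene. Females alone gave 4616, 4561, 71, 13, 362 and 2. Voom weighted by group gave 2264 calls in cKO, 392 kept, 50 turned or larger and 10 genes differing without the transgene, where DESeq2 gave 17, and the cause was not tested. Leaving out 1 library gave 6248 to 7654 interactions, 6160 to 7525 reduced genes, 112 to 241 kept, 11 to 39 turned or larger, 685 to 1643 calls in cKO, 9541 to 10416 in cWT, 2 to 9 genes differing without the transgene and a slope of 0.260 to 0.297.

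Scaling to pan-neuronal genes, which sets their summed counts equal, gave 12627 interactions, 12555 reduced and 110 kept genes and 2 differing without the transgene. It reversed Atg7 (-0.43), Atg9a (-0.25), Atp6v0a1 (-0.26), Azi1 (-0.30), Chat (-0.34), Chodl (-0.71), Cx3cl1 (-0.027), Fxyd7 (-0.68), Josd2 (-0.49), Lifr (-0.72), Mnx1 (-0.21), Mrvi1 (-0.35), Psmc1 (-0.51), Serpinf2 (-0.88), Slc18a3 (-0.22), Srebf2 (-0.020), Tmem132a (-0.47), Tpd52l1 (-0.74) and Ulk1 (-0.29). Interactions near 0 that were not called also changed sign. In females alone Chodl was -0.23, Ifit3 0.34, Lifr -0.071, Serpinf2 -0.28 and Tpd52l1 -0.037, in males alone Calca was 0.39 and Isl1 0.45, and Isl2 was 0.10 on log2(FPKM + 1). Leaving out 1 library gave -0.22 to 0.15 for Calca, -0.030 to 0.23 for Chodl, -0.40 to 0.085 for Ifit3, -0.24 to 0.10 for Isl1, -0.40 to 0.13 for Isl2, -0.13 to 0.0089 for Sall1 and -0.89 to 0.44 for Serpinf2. Serpinf2, with 0 reads in cKO, was also -0.71 by DESeq2, -1.68 by voom and -2.29 and -1.45 in the FPKM fits. Over the named genes and all alternatives, 3211 interactions kept direction and side of the threshold, 47 lost the call, 17 gained one and 59 reversed.

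Nothing in the labels says what a shared replicate number stands for, and 11 of 24 correlations between same-numbered libraries were over 0.1 (range -0.253 to 0.312), among them all 4 of cWT with cKO SOD1 (0.195 to 0.312), groups that no contrast of 2 groups compares. A library correlated best with its own number in 17 of 48 comparisons with another group, so the numbers were not taken as pairs. With the replicate block 6936 interactions were called, and of the named genes Slc2a5 alone changed its call. At 14989026 or more counts per library, changes in genes under 1 CPM rest on few reads.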
